A study of Mus musculus and Acomys cahirinus with 84 samples.

Results

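The genes described here encode secreted growth factors that act on blood and lymph vessels, with apelin among them. They are Vegfa, Vegfc, Vegfd, Pgf, Angpt1, Angpt2, Angptl4, Apln, Hgf and Egfl6. They were taken by symbol from the deposited count tables, and all 10 had a row both among the 56980 rows of the mouse table and among the 19818 rows of the *A. cahirinus* table. The cells were primary skin fibroblasts from mice labelled C56BL6, from wild mice and from the African spiny mouse *A. cahirinus*. The labels name no genetic change, age or sex for the animals, and groups differ by population, dose, time and passage. In each population, cells received 0, 10 or 20 Gy of gamma radiation and were collected at 24 h or at 12 d. A further set of untreated cells was passaged and collected at 12 d. Each of the 21 groups held 4 libraries of polyA RNA, made as stranded mRNA libraries, which gives 84 libraries.

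Vascular endothelial growth factors are secreted proteins that bind receptor tyrosine kinases on endothelial cells. Vegfa and Pgf act mainly on blood vessels, and Vegfc and Vegfd act mainly on lymphatic vessels. Angpt1 activates the endothelial receptor Tek, whereas Angpt2 can oppose it and loosens vessels. Apelin is a peptide ligand of the receptor Aplnr, and Hgf, a factor made by connective tissue cells, signals through Met. Fibroblasts are a source of several of these factors in skin, where wounds and hypoxia are known to raise some of them.

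At 12 d after 20 Gy, against untreated cells that were not passaged, Angpt2 fell in C56BL6 cells and rose in *A. cahirinus* cells. In C56BL6 cells Angpt2, Angptl4 and Egfl6 fell, by 4.74-fold, 2.34-fold and 76.6-fold. Against untreated C56BL6 cells that were passaged, Egfl6 was instead higher at 20 Gy, with few counts in the passaged libraries. Angpt2 and Angptl4 did not pass in that comparison. In wild mouse cells Apln fell by 4.26-fold. That call ended when replicate 1, 2 or 4 was left out, and when the libraries of replicates 1 and 4 were summed. In *A. cahirinus* cells Angpt2 rose 8.66-fold, and the change of Angpt2 differed from that in C56BL6 cells (log2 difference 5.35 ± 0.61 (SE), adjusted p = 0.000145). The change in wild mouse cells was tested directly against that in C56BL6 cells, and 0 of 10 members passed, against 0.0% of all genes. Of these members 0 had an unadjusted p under 0.05, and 0 passed in DESeq2. The differing calls therefore do not set these mice apart, and a test that called no gene cannot show that the changes are alike. With same-numbered libraries paired in the fit, 1 member, Egfl6, passed, against 0.101% of all genes. It did not pass with wild replicates 1 and 4 summed in that fit. Vegfa, the member with the highest level in *A. cahirinus* cells, did not pass edgeR's test of irradiated against untreated cells not passaged in any population. With same-numbered libraries paired in the fit, it passed as lower in *A. cahirinus* cells at 12 d after 20 Gy. Unless another fit is named, calls rest on adjusted p-values of edgeR's quasi-likelihood test, with the threshold at 0.05.

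Library totals, in units of 1000000 counted reads, were between 26.654 and 39.82 in C56BL6 cells, between 17.419 and 35.985 in wild mouse cells, and between 25.553 and 52.857 in *A. cahirinus* cells. Levels are given as counts per 1000000 counts of the library (CPM). A count of 3, used as the floor, corresponded to 0.057 to 0.172 CPM over all libraries. The labels put all 24 h samples in batch B1 and all 12 d samples in batch B2, so a difference between the times cannot be told apart from one between the batches, and times were not tested against each other. All 8 fibroblast markers examined were present, with a summed level of at least 8172 CPM in every library. The 10 endothelial markers examined summed to 4.56 to 36.1 CPM in C56BL6, 1.80 to 17.5 CPM in wild mouse and 3.95 to 38.9 CPM in *A. cahirinus* libraries. Of the 10, 7, 7 and 8 had a mean below 1 CPM in these populations. Esam reached 34.4 CPM in *A. cahirinus* cells and Kdr a group mean of 8.99 CPM in C56BL6 cells, whereas Cldn5 reached at most 0.0357 CPM, Tie1 0.196 CPM and Pecam1 2.12 CPM in any library. In C56BL6 cells the libraries of replicate 1 held keratinocyte markers at all doses, with a summed level of 829.1 CPM at 0 Gy and 12 d against at most 4.19 CPM in the other 12 d libraries of these cells. The wild mouse libraries of replicates 1 and 4 at 12 d shared their detected genes at each dose and when passaged: 0 genes were above 5 CPM in the library of replicate 1 and at 3 reads or fewer in that of replicate 4, or the reverse, where other wild mouse pairs at 12 d had 17 to 126 such genes. In C56BL6 cells, replicates 3 and 4 also had 0 such genes in every group, and *A. cahirinus* pairs had at most 2. The count alone therefore does not show that 2 libraries share a source. As a precaution, results in wild mouse cells at 12 d are also given with the wild mouse libraries of replicates 1 and 4 summed. Libraries that carry the same number came from the same animal code in the library names, and a fit with that number as a block, called the replicate block here, is given where it changes a call. In bulk RNA, fewer cells of a type and less RNA per cell cannot be told apart.

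The sequences just upstream of Apln, Angptl4 and Egfl6, whose levels differed at 12 d in at least 1 mouse population, are shown so that their composition can be compared with the values that follow. Each is the 200 bases before the annotated start in GRCm39, written 5′ to 3′ on the gene's strand. Capitals mark a hypoxia response core (ACGTG or GCGTG, on either strand, so CACGT is the core read from the other strand).
Apln, chrX:47123776-47123975, minus strand: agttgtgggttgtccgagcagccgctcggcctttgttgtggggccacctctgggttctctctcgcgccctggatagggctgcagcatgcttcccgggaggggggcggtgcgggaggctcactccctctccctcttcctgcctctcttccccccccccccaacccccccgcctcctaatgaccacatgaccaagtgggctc
Angptl4, chr17:34000805-34001004, minus strand: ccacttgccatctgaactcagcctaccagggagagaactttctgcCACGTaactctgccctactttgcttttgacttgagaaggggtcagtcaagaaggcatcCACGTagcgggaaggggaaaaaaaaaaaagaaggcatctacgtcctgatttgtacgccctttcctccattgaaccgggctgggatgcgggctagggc
Egfl6, chrX:165368864-165369063, minus strand: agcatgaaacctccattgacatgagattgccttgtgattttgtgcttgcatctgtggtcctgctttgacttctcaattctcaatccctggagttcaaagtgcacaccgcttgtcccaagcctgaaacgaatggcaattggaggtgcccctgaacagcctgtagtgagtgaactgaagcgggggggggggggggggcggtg
The Angptl4 window held 2 such cores, beginning 155 and 97 bases before the start, and the windows of Apln and Egfl6 held 0. Of the windows of 9 members searched, 5 held a core, against 34.2% of 21770 windows of protein-coding genes searched the same way. Of these 9 windows, 0 held an AP-1 site (TGANTCA, either strand), which 5.16% of all windows held. The Apln window was 67% G or C and the Angptl4 window 52%. Apln, Vegfd and Egfl6 lie on chromosome X.

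At 12 d the order of the untreated levels differed between mouse and spiny mouse. Levels of different genes are compared here as CPM per kilobase of annotated exon, as mean ± SD over 4 libraries. In *A. cahirinus* cells at 12 d, Vegfa was first at 197 ± 20.0, ahead of Angptl4 at 24.6 ± 12.2, and their ranges did not overlap. In C56BL6 cells at 12 d, Vegfd was first at 576 ± 238, ahead of Vegfa at 86.1 ± 16.4. In wild mouse cells at 12 d, Vegfd was also first at 399 ± 317, ahead of Vegfa at 80.7 ± 8.08. The SD of Vegfd was wide, with replicate 3 at 867. Its lowest library, at 168, was still above the highest of Vegfa, at 90.3. Next in C56BL6 cells came Egfl6 at 54.8 ± 35.2, Angptl4 at 32.6 ± 8.44, Hgf at 13.9 ± 6.78, Apln at 11.8 ± 8.08 and Angpt2 at 10.3 ± 2.49. Angptl4 and Hgf were further apart than their SDs reach, and the other neighbours in this order were not. Apln was at 12.3 ± 1.51 in wild mouse cells and at 6.98 ± 2.39 in *A. cahirinus* cells. At 24 h Vegfa was first in C56BL6 cells too, at 96.9 ± 15.6 ahead of Vegfd at 24.8 ± 12.7, and in wild mouse cells Vegfd at 101.1 ± 64.1 and Vegfa at 95.9 ± 26.5 did not differ beyond their spread. Vegfd and Egfl6 were near the floor in *A. cahirinus* cells, with at most 0.175 CPM for Vegfd and 0.247 CPM for Egfl6 in any library. The mouse and spiny mouse reads were counted on different gene models, so levels are not tested across the species.

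Each comparison was fitted over all genes that passed the expression filter, and the members are read against the share of all those genes that passed. At 12 d after 20 Gy, 3 of 10 tested members passed in C56BL6 cells, all lower, against 26.5% of all genes tested. Of the members in wild mouse cells, 1 of 10 passed, lower, against 0.0694% of all genes. Of the members in *A. cahirinus* cells, 1 of 8 passed, higher, against 31.8%, and Vegfd and Egfl6 were too low to be tested. With the replicate block, 7 members passed in C56BL6 cells (all genes 47.5%), 3 in wild mouse cells (15.4%; 2 against 2.49% with replicates 1 and 4 summed in that fit) and 6 in *A. cahirinus* cells (49.2%). The median log2 change of the tested members was -1.23 in C56BL6 cells, -0.55 in wild mouse cells and -0.23 in *A. cahirinus* cells, where the medians of all genes were -0.0133, -0.0084 and 0.0026. After 10 Gy at 12 d, 3 of 10 passed in C56BL6 cells (20.9%), 1 of 10 in wild mouse cells (0.264%) and 0 of 8 in *A. cahirinus* cells (2.87%). With the replicate block these became 6 (38.8%), 4 (12.7%; 3 against 3.59% with the wild libraries summed) and 5 (27.5%). In that *A. cahirinus* comparison 2 members had an unadjusted p under 0.05, and DESeq2 called 1, against 11.6% of all genes. Marker lists moved with the dose of 20 Gy at 12 d. Of the tested proliferation genes, 8 of 9 were lower in *A. cahirinus* cells (median log2 change -3.0), 1 of 10 in C56BL6 cells and 0 of 10 in wild mouse cells, and with the block 8, 7 and 2. Summed fibroblast markers were lower at 20 Gy in every replicate number of each population. They lay between 25470 and 46070 CPM at 0 Gy and between 8969 and 13470 CPM at 20 Gy in C56BL6 cells. The ranges were 11220 to 66170 and 8349 to 28000 CPM in wild mouse cells, and 29050 to 32910 and 19160 to 28320 CPM in *A. cahirinus* cells. The part of these lists in the members' results was not tested.

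At 24 h no member passed edgeR's test in any population. At 20 Gy this was 0 of 8 in C56BL6 cells, where 0.0895% of all genes passed, 0 of 9 in wild mouse cells (0.0%) and 0 of 7 in *A. cahirinus* cells (3.59%). At 10 Gy it was 0 of 8 (0.007%), 0 of 8 (0.0%) and 0 of 7 (3.73%). The members with an unadjusted p under 0.05 at 20 Gy numbered 2, 0 and 1, and at 10 Gy 2, 0 and 0, in the same order of populations. DESeq2 called 1 member, Apln in C56BL6 cells at 20 Gy (1.86% of all genes), and 0 in the other 24 h comparisons. With the replicate block, 6 members passed in C56BL6 cells at 20 Gy (17.6%), 3 in wild mouse cells (12.5%) and 2 in *A. cahirinus* cells (24.1%). At 10 Gy the block gave 4 (11.5%), 0 (0.0%) and 4 (27.6%). Angpt1 and Egfl6 were too low to be tested at 24 h in C56BL6 cells, as were Vegfd, Angpt1 and Egfl6 in *A. cahirinus* cells.

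**Figure D1:**
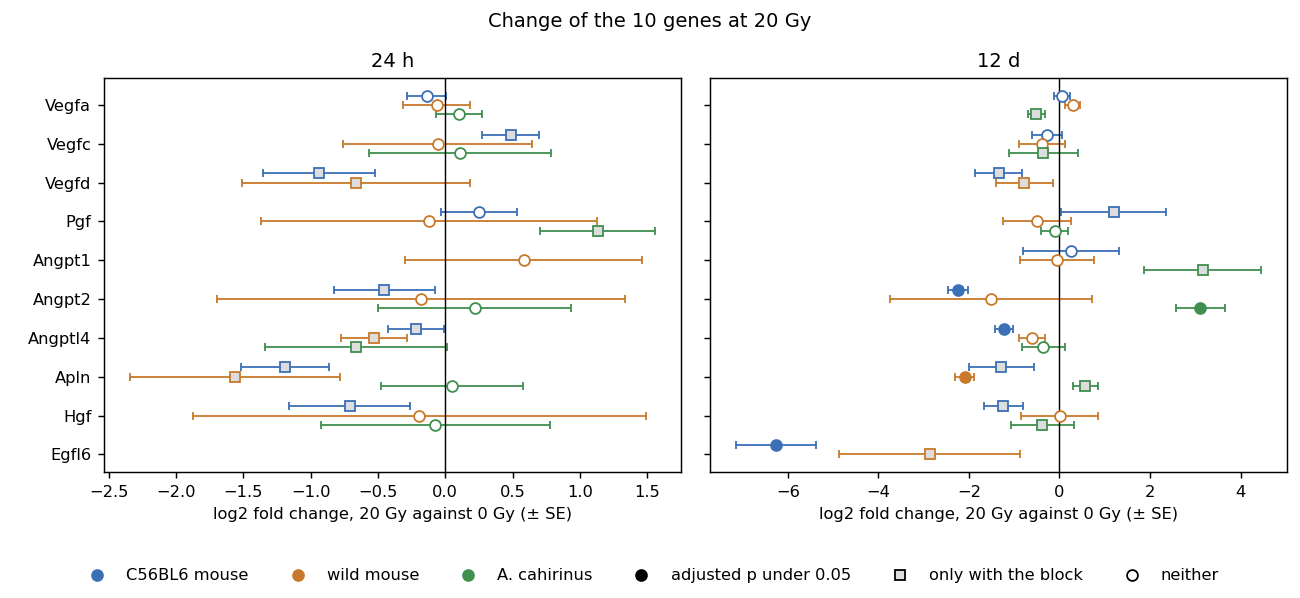
Log2 fold change with its standard error for each of the 10 genes at 20 Gy against 0 Gy, at 24 h and at 12 d, in fibroblasts of C56BL6 mice, wild mice and *A. cahirinus* (4 libraries a group); the horizontal scales of the 2 panels differ. Filled circles passed an adjusted p of 0.05, grey squares passed only with the replicate block, and genes too low to be tested have no point. Angpt2 at 12 d lies at -2.25 in C56BL6 cells and at 3.12 in *A. cahirinus* cells.

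Apln, the apelin precursor, was lower in every irradiated wild mouse library at 12 d. Its levels at 12 d in wild mouse cells were 32.5, 44.1, 39.3 and 39.5 CPM at 0 Gy, in the order of replicates 1 to 4. They were 14.97, 17.3, 11.4 and 15.1 CPM at 10 Gy, and 11.2, 10.5, 6.55 and 11.9 CPM at 20 Gy. The untreated libraries did not overlap with the irradiated ones. The log2 level of Apln fell by 2.09 ± 0.21 (SE) at 20 Gy (adjusted p = 0.0298) and by 1.58 ± 0.18 at 10 Gy (adjusted p = 0.0274). Both calls depended on the libraries: at 20 Gy the adjusted p was 0.462, 0.0941, 0.0328 and 0.499 without replicates 1, 2, 3 and 4 in turn, and at 10 Gy it was 0.543, 0.0694, 0.0504 and 0.373. With replicates 1 and 4 summed, the adjusted p was 0.398 at 20 Gy and 0.417 at 10 Gy, and with the replicate block added it was 0.0204 and 0.0133.

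In C56BL6 cells at 12 d, Apln stood at 21.2, 13.4, 70.1 and 43.3 CPM at 0 Gy and at 2.90, 12.5, 27.1 and 23.7 CPM at 20 Gy. Every replicate number was lower at 20 Gy, and the groups overlapped, since replicates 1 and 2 were low at 0 Gy. The change of -1.28 ± 0.71 did not pass (adjusted p = 0.216) but did with the replicate block (adjusted p = 0.0302). Apln stood in *A. cahirinus* cells at 13.5, 21.99, 21.9 and 32.2 CPM at 0 Gy and at 28.8, 24.3, 32.997 and 48.03 CPM at 20 Gy. Here every replicate number was higher at 20 Gy, with overlapping groups. The change of 0.57 ± 0.28 did not pass (adjusted p = 0.153) and passed with the replicate block (adjusted p = 0.0126). The change of Apln in *A. cahirinus* cells differed from that in wild mouse cells by 2.67 ± 0.37 on the log2 scale (adjusted p = 0.00451; 0.0984 without replicate 1 and 0.0233 with the wild libraries summed).

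At 24 h Apln was lower after 20 Gy in every replicate number of both mouse populations, and did not pass edgeR's test without the block. In C56BL6 cells Apln stood at 8.10, 6.88, 17.2 and 14.3 CPM at 0 Gy and at 4.30, 3.70, 6.26 and 6.48 CPM at 20 Gy, without overlap. It stood in wild mouse cells at 6.69, 32.4, 40.9 and 15.6 CPM at 0 Gy and at 1.58, 12.1, 16.1 and 3.51 CPM at 20 Gy. The wild mouse groups overlapped because replicates 1 and 4 were low at each dose, and the other replicates were high. The log2 change at 20 Gy was -1.19 ± 0.33 in C56BL6 cells (adjusted p = 0.266; 1.09e-05 with the replicate block, 0.0186 in DESeq2). It was -1.56 ± 0.78 in wild mouse cells (adjusted p = 0.894; 0.000143 with the block). At 24 h Apln stood in *A. cahirinus* cells at 6.55, 14.9, 8.08 and 18.9 CPM at 0 Gy and at 3.67, 14.9, 8.70 and 21.8 CPM at 20 Gy, a change of 0.05 ± 0.53 (adjusted p = 0.98). With the block, the change in *A. cahirinus* cells at 24 h lay above that in C56BL6 cells by 1.11 (adjusted p = 0.000785) and above that in wild mouse cells by 1.65 (adjusted p = 0.000703); neither passed without it.

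**Figure D2:**
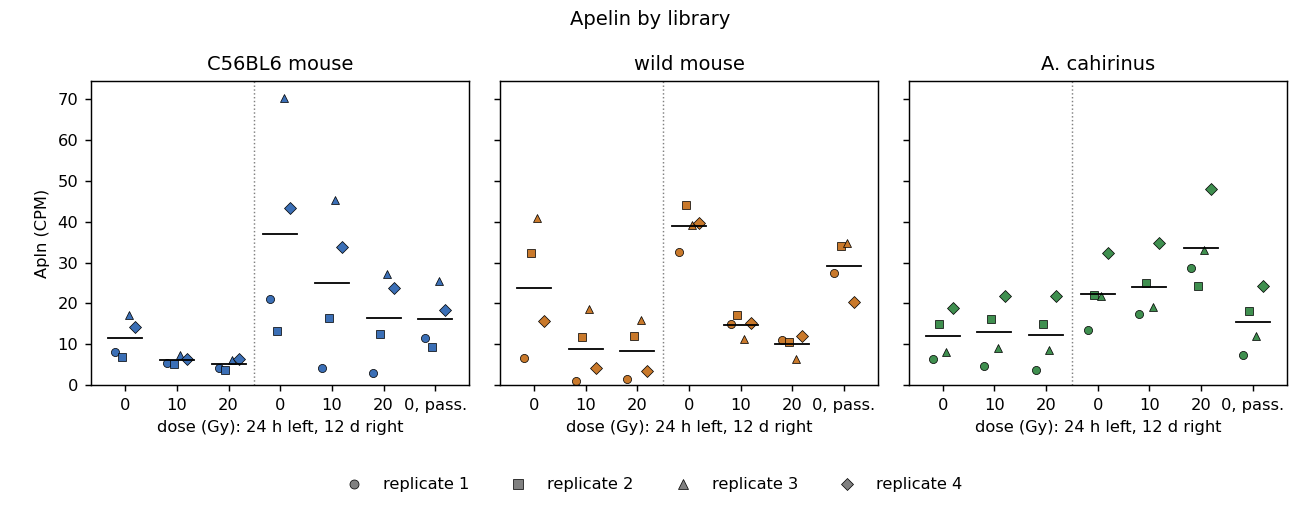
Apln in CPM (vertical axis, from 0) in each of the 84 libraries, by population, time and dose in Gy, with "pass." for untreated passaged cells. Markers are replicate numbers and horizontal bars are group means; the dotted line separates 24 h (batch B1) from 12 d (batch B2). At 12 d the wild mouse libraries at 20 Gy sit between 6.55 and 11.9 CPM, below the 32.5 to 44.1 CPM of untreated cells, and the *A. cahirinus* libraries at 20 Gy sit between 24.3 and 48.03 CPM.

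Angpt2 moved in opposite directions in C56BL6 and *A. cahirinus* cells at 12 d. In C56BL6 cells it stood at 49.5, 36.1, 38.6 and 27.2 CPM at 0 Gy, at 13.99, 7.24, 8.30 and 10.7 CPM at 10 Gy and at 10.0, 6.54, 7.89 and 10.3 CPM at 20 Gy. It stood in *A. cahirinus* cells at 5.49, 11.6, 3.77 and 3.53 CPM at 0 Gy, at 27.4, 62.5, 14.2 and 7.62 CPM at 10 Gy and at 59.9, 83.3, 45.3 and 22.2 CPM at 20 Gy. The untreated and 20 Gy groups did not overlap in either population, and within *A. cahirinus* cells every replicate number was higher at 20 Gy than at 10 Gy. In C56BL6 cells the log2 change was -2.25 ± 0.22 at 20 Gy (adjusted p = 0.00106) and -2.04 ± 0.26 at 10 Gy (adjusted p = 0.00298). In *A. cahirinus* cells it was 3.12 ± 0.53 at 20 Gy (adjusted p = 0.00356) and 2.23 ± 0.72 at 10 Gy (adjusted p = 0.128; 0.00131 with the block). Leaving out any replicate number kept the 20 Gy calls of both populations and the difference between them, with adjusted p of at most 0.0248, 0.0482 and 0.0139.

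The mean level of Angpt2 in wild mouse cells was mostly that of replicate 3. At 12 d it stood at 7.86, 0.316, 857 and 18.9 CPM at 0 Gy and at 2.86, 1.65, 283 and 5.37 CPM at 20 Gy. Replicate 3 was high in every wild mouse group, also at 24 h, and replicate 2 alone was higher at 20 Gy than at 0 Gy. The change of -1.51 ± 2.23 did not pass (adjusted p = 0.833). Summed endothelial markers in *A. cahirinus* cells at 12 d were between 3.95 and 21.4 CPM at 0 Gy and between 13.8 and 35.4 CPM at 20 Gy. Esam took 7.80 to 28.4 CPM of the sum at 20 Gy, while Cldn5 had at most 1 read in a library of these groups and Cdh5 reached 1.86 CPM. Their part in the Angpt2 result was not tested.

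Angpt1, the partner ligand of Angpt2 at Tek, was low in all cells. At 12 d it stood in *A. cahirinus* cells at 0.343, 2.10, 0.0704 and 0.0290 CPM at 0 Gy and at 2.71, 17.1, 1.87 and 1.11 CPM at 20 Gy. Every replicate number was higher at 20 Gy, replicate 2 was high at both doses and the groups overlapped. The log2 change of 3.16 ± 1.29 did not pass (adjusted p = 0.0935; 0.000293 with the block). In C56BL6 cells at 12 d Angpt1 reached at most 3.69 CPM, with a change of 0.26 ± 1.05 at 20 Gy (adjusted p = 0.882). In wild mouse cells it reached 10.5 CPM in replicate 1, with a change of -0.04 ± 0.82 (adjusted p = 0.991).

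**Figure D3:**
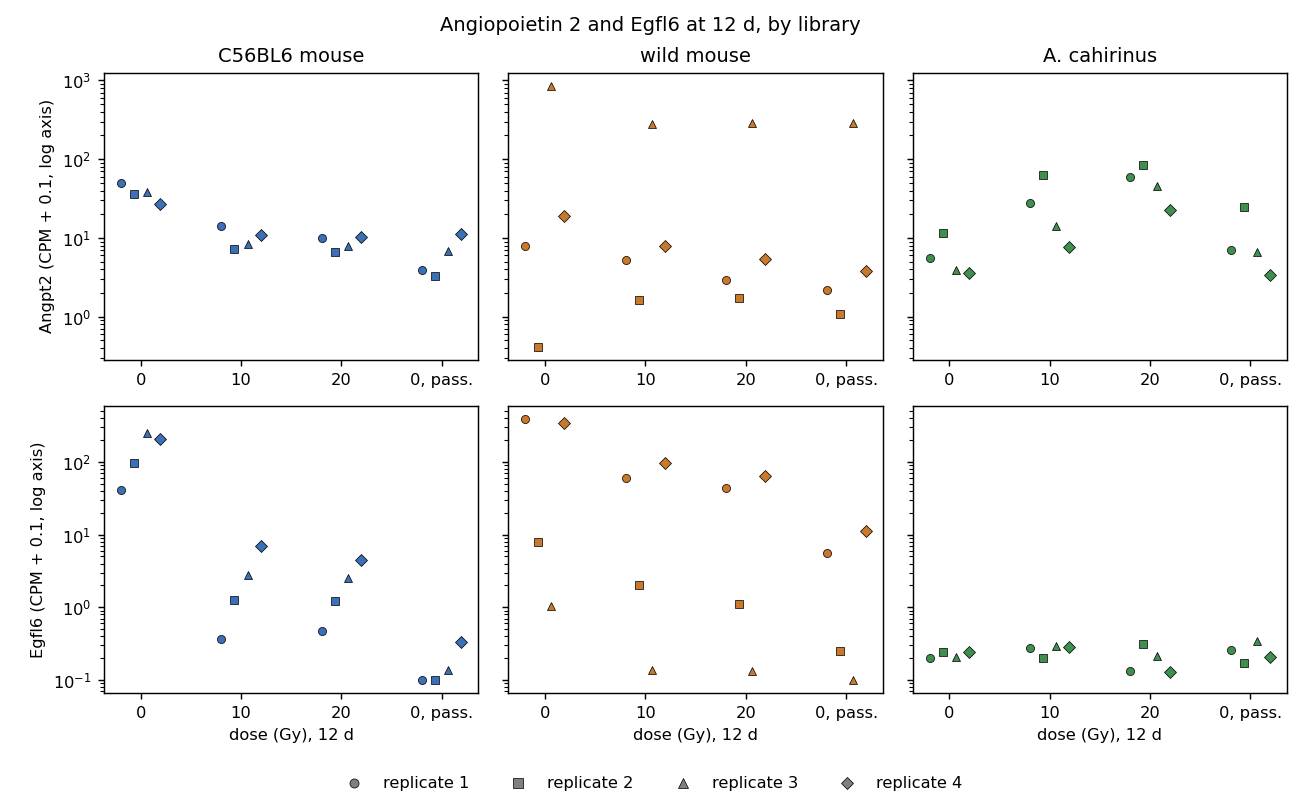
Angpt2 (upper row) and Egfl6 (lower row) at 12 d in each library, in CPM with 0.1 added on a log axis, by dose in Gy and population, with "pass." for untreated passaged cells and markers for replicate numbers. Angpt2 sits between 22.2 and 83.3 CPM in *A. cahirinus* cells at 20 Gy and between 6.54 and 10.3 CPM in C56BL6 cells at 20 Gy. Egfl6 sits between 41.5 and 247 CPM in untreated C56BL6 libraries and between 0.370 and 4.42 CPM in those at 20 Gy.

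Egfl6, a secreted protein with EGF-like repeats that endothelial cells can bind, was above the floor in all untreated mouse libraries at 12 d that were not passaged, and near it in *A. cahirinus* cells. In C56BL6 cells it stood at 41.5, 97.6, 247 and 207 CPM at 0 Gy, at 0.263, 1.16, 2.69 and 6.82 CPM at 10 Gy and at 0.370, 1.13, 2.43 and 4.42 CPM at 20 Gy. The irradiated libraries did not overlap with the untreated ones. Egfl6 fell by 6.26 ± 0.88 on the log2 scale at 20 Gy (adjusted p = 0.00268) and by 5.88 ± 0.98 at 10 Gy (adjusted p = 0.00648; 0.0761 without replicate 3). It stood in wild mouse cells at 389, 7.86, 0.927 and 338 CPM at 0 Gy and at 43.1, 1.01, 0.0346 and 63.6 CPM at 20 Gy. Replicates 1 and 4 were high and replicates 2 and 3 low at every dose, and every replicate number was lower at 20 Gy. That change of -2.87 ± 2.01 did not pass (adjusted p = 0.594), and passed with the replicate block (-3.01, adjusted p = 0.00221; 0.0202 with replicates 1 and 4 summed in that fit). At 24 h Egfl6 was at 0 in all C56BL6 libraries but 1 at 20 Gy, and in wild mouse cells replicate 4 was the highest at 10.9, 1.51 and 1.32 CPM at 0, 10 and 20 Gy.

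Angptl4, a secreted inhibitor of lipoprotein lipase that is also a target of hypoxia-inducible factors and PPARs, fell in C56BL6 cells at 12 d. It stood at 107.7, 87.8, 108.5 and 158 CPM at 0 Gy and at 48.6, 41.9, 58.6 and 65.1 CPM at 20 Gy. All 4 libraries at 20 Gy were below the lowest untreated library. The log2 change was -1.23 ± 0.20 at 20 Gy (adjusted p = 0.00461) and -0.95 ± 0.23 at 10 Gy (adjusted p = 0.0228; 0.131 without replicate 3). Angptl4 stood in wild mouse cells at 136, 99.3, 180 and 69.8 CPM at 0 Gy and at 75.7, 102.3, 93.6 and 69.1 CPM at 20 Gy, a change of -0.60 ± 0.28 with overlapping groups (adjusted p = 0.395). It stood in *A. cahirinus* cells at 51.8, 74.4, 44.3 and 17.7 CPM at 0 Gy and at 47.4, 29.04, 55.7 and 16.1 CPM at 20 Gy. Replicate 4 was low in every *A. cahirinus* group, and the change of -0.35 ± 0.48 did not pass (adjusted p = 0.604). At 24 h every replicate number of every population was lower at 20 Gy than at 0 Gy for Angptl4. Those changes passed with the block: -0.22 in C56BL6 (adjusted p = 0.0159), -0.49 in wild mouse (adjusted p = 0.00841) and -0.64 in *A. cahirinus* cells (adjusted p = 0.00063).

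Among the vascular endothelial growth factors, Vegfd had the highest mean level per kilobase in untreated mouse cells at 12 d that were not passaged. In C56BL6 cells at 12 d it stood at 590, 1368, 1877 and 1712 CPM at 0 Gy and at 181, 507, 844 and 839 CPM at 20 Gy. Every replicate number was lower at 20 Gy, and replicate 1 was the lowest at both doses. The change of -1.34 ± 0.52 did not pass (adjusted p = 0.0897; 0.000436 with the block, 0.0224 in DESeq2). It stood in wild mouse cells at 676, 674, 2089 and 405 CPM at 0 Gy and at 302, 739, 1034 and 258 CPM at 20 Gy. Replicate 2 was higher and the other replicates lower at 20 Gy, a change of -0.77 ± 0.62 (adjusted p = 0.656; 0.0342 with the block, and 0.142 with replicates 1 and 4 summed in that fit). At 24 h Vegfd stood at 47.1, 26.7, 98.4 and 66.5 CPM in untreated C56BL6 cells and at 40.1, 15.7, 42.4 and 29.5 CPM at 20 Gy, again lower in every replicate number (-0.94 ± 0.42, adjusted p = 0.513; 0.000266 with the block).

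Vegfa, the main vascular endothelial growth factor, had smaller differences between doses. In C56BL6 cells at 12 d it stood at 416, 268, 375 and 417 CPM at 0 Gy and at 380, 336, 452 and 494 CPM at 20 Gy, a change of 0.05 ± 0.18 (adjusted p = 0.854). It stood in wild mouse cells at 310, 361, 387 and 326 CPM at 0 Gy and at 410, 550, 444 and 438 CPM at 20 Gy. Those groups did not overlap, and the change of 0.29 ± 0.17 did not pass (adjusted p = 0.491). It stood in *A. cahirinus* cells at 785, 885, 745 and 926 CPM at 0 Gy, at 553, 718, 421 and 549 CPM at 10 Gy and at 485, 781, 568 and 507 CPM at 20 Gy. Every *A. cahirinus* replicate number was lower after irradiation, with a change at 20 Gy of -0.51 ± 0.18 (adjusted p = 0.0632; 0.0145 with the block). At 24 h Vegfa lay between 564 and 906 CPM in all *A. cahirinus* libraries and between 272 and 538 CPM in all mouse libraries.

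Vegfc and Pgf differed widely between replicate numbers in some populations, and reached at most 43.8 and 82.1 CPM in any library. In C56BL6 cells at 24 h Vegfc stayed between 3.48 and 7.89 CPM. At 12 d Vegfc stood in *A. cahirinus* cells at 13.7, 43.8, 12.5 and 9.99 CPM at 0 Gy and at 7.58, 39.8, 10.1 and 4.10 CPM at 20 Gy. Replicate 2 was the highest in every *A. cahirinus* group, and the change of -0.36 ± 0.77 did not pass (adjusted p = 0.753; 0.0347 with the block). At 24 h Vegfc in C56BL6 cells was higher in every replicate number at 20 Gy, at 7.89, 6.63, 7.46 and 5.45 CPM against 6.64, 5.19, 3.91 and 3.48 CPM at 0 Gy (0.49 ± 0.21, adjusted p = 0.508; 0.0116 with the block). Pgf in C56BL6 cells at 12 d stood at 7.62, 0.177, 0.278 and 0.222 CPM at 0 Gy and at 9.30, 4.11, 3.69 and 3.71 CPM at 20 Gy. Replicate 1, which held the keratinocyte markers, was high at 0 Gy and kept the groups overlapping. The change of 1.20 ± 1.17 did not pass (adjusted p = 0.479); it passed with the replicate block (adjusted p = 0.0296) and without replicate 1 (3.94, adjusted p = 0.000319). At 24 h Pgf stood in *A. cahirinus* cells at 2.69, 1.05, 1.02 and 1.13 CPM at 0 Gy and at 5.49, 1.82, 2.76 and 2.69 CPM at 20 Gy (1.13 ± 0.43, adjusted p = 0.209; 0.000616 with the block).

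Hgf was lower in every C56BL6 replicate number at 12 d, at 37.3, 130, 85.6 and 146 CPM at 0 Gy and at 22.4, 49.95, 47.8 and 62.4 CPM at 20 Gy. Replicate 1 was lowest at both doses and the groups overlapped. The change of -1.24 ± 0.44 did not pass (adjusted p = 0.0705; 0.000537 with the block, 0.0165 in DESeq2). Hgf stood in wild mouse cells at 75.3, 170, 35.1 and 67.4 CPM at 0 Gy and at 80.0, 229, 8.21 and 89.0 CPM at 20 Gy, with replicate 3 lower and the other replicates higher (0.01 ± 0.86, adjusted p = 0.999). It stood in *A. cahirinus* cells at 6.01, 23.3, 16.2 and 5.96 CPM at 0 Gy and at 4.23, 22.9, 8.65 and 3.37 CPM at 20 Gy. That change of -0.38 ± 0.70 did not pass (adjusted p = 0.712; 0.0348 with the block).

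**Figure D4:**
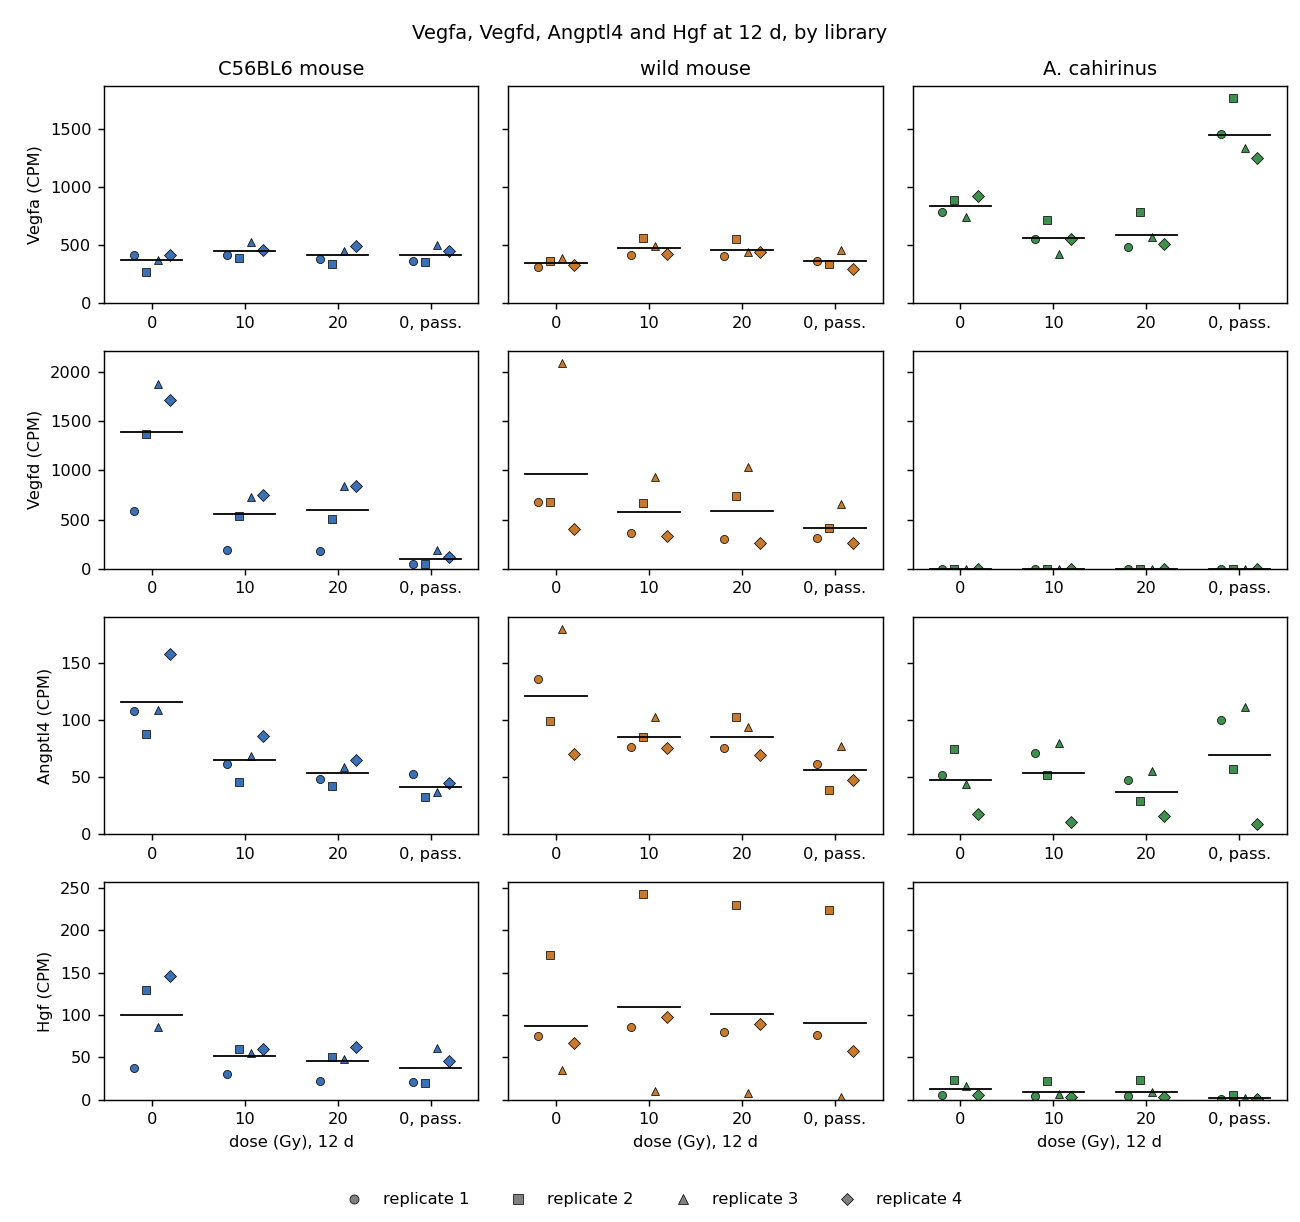
Vegfa, Vegfd, Angptl4 and Hgf (rows) at 12 d in each library, in CPM from 0, by dose in Gy and population, with "pass." for untreated passaged cells. Markers are replicate numbers and bars are group means. Vegfd is at most 0.175 CPM in *A. cahirinus* cells, whose Vegfa reaches 1247 to 1767 CPM in passaged cells.

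Untreated cells at 12 d that were passaged were compared with untreated cells that were not. In C56BL6 cells 6 of 10 members passed, all lower in passaged cells, against 49.6% of all genes tested (with the block 8, against 60.1%). Of the members in wild mouse cells, 0 of 10 passed edgeR's test, against 10.7% of all genes. There 4 members had an unadjusted p under 0.05, DESeq2 called 2 (22% of all genes), and the block gave 5 (31.9%; 4 against 14.3% with replicates 1 and 4 summed). Of the members in *A. cahirinus* cells, 2 of 7 passed, 1 in each direction, against 25.8% (with the block 6, against 49.5%). The proliferation genes examined moved with this contrast: of 10, 10 were higher in passaged C56BL6 cells, 1 in wild mouse cells and 8 in *A. cahirinus* cells, and with the block 10 in each. Their summed level in cells not passaged and in passaged cells was 69.6 to 348 and 779 to 1107 CPM in C56BL6, 40.1 to 362 and 478 to 1057 CPM in wild mouse, and 286 to 388 and 377 to 725 CPM in *A. cahirinus* cells. Their part in the members' results was not tested.

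In C56BL6 cells Vegfd stood at 46.2, 47.95, 192 and 115 CPM when passaged, a fall of 14-fold from the untreated levels above (-3.80 ± 0.59, adjusted p = 0.00147). Egfl6 was at 0, 0, 0.0369 and 0.236 CPM in passaged cells, so that only replicates 3 and 4 had any count. Its fall from a mean of 148 CPM passed the test (adjusted p = 0.00023), with a size that depends on the few counts in passaged cells. Angpt2 stood at 3.81, 3.21, 6.69 and 11.1 CPM (-2.62 ± 0.41, adjusted p = 0.00153) and Angptl4 at 52.4, 32.7, 37.2 and 44.8 CPM (-1.48 ± 0.20, adjusted p = 0.000921). Both were below every untreated library. Hgf fell by 1.43 ± 0.50 (adjusted p = 0.0421) and Vegfc by 0.99 ± 0.33 (adjusted p = 0.0361). Leaving out replicate 2, 3 or 4 ended both of these calls, with adjusted p from 0.0566 to 0.189 for Hgf and from 0.0624 to 0.124 for Vegfc.

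Vegfa rose with passaging in *A. cahirinus* cells to 1453, 1767, 1340 and 1247 CPM, all above the highest untreated library. The change was 0.78 ± 0.15 (adjusted p = 0.00757; 0.0754 without replicate 1 and 0.0567 without replicate 3). Hgf fell to 0.900, 5.20, 1.76 and 0.942 CPM (-2.55 ± 0.71, adjusted p = 0.0315; 0.104, 0.168 and 0.0844 without replicates 1, 3 and 4). Apln in passaged *A. cahirinus* cells stood at 7.47, 18.1, 12.0 and 24.3 CPM (-0.56 ± 0.38, adjusted p = 0.306; 0.00256 with the block). In passaged wild mouse cells Apln stood at 27.3, 33.9, 34.8 and 20.3 CPM (-0.51 ± 0.22, adjusted p = 0.175), and Angptl4 at 61.4, 38.7, 76.9 and 47.7 CPM (-1.17 ± 0.33, adjusted p = 0.0569; 0.00707 with the block).

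Cells at 20 Gy were also set against the passaged untreated cells of the same age. In C56BL6 cells 3 of 10 members passed, all higher at 20 Gy, against 41.6% of all genes (with the block 4, against 56.1%). Of the members in wild mouse cells, 1 of 10 passed, against 10.5% (with the block 5, against 38%, and 3, against 27.5%, with replicates 1 and 4 summed in that fit). Of the members in *A. cahirinus* cells, 3 of 8 passed, against 42.5% (with the block 6, against 56%). The C56BL6 members were Vegfd (2.44 ± 0.62, adjusted p = 0.0138), Angpt1 (3.43 ± 1.15, adjusted p = 0.0415) and Egfl6 (4.79 ± 1.11, adjusted p = 0.00956). The passaged libraries held 0, 2, 15 and 3 reads of Angpt1 and 0, 0, 1 and 7 of Egfl6. The sizes of both differences therefore depend on few counts near the floor. Without replicate 2 or 4 the adjusted p was 0.0677 and 0.0718 for Vegfd and 0.143 and 0.171 for Angpt1, and without replicate 3 it was 0.0645 for Egfl6. Against passaged cells, Angpt2 did not pass in C56BL6 cells (0.34 ± 0.38, adjusted p = 0.498), although it had fallen against untreated cells that were not passaged. Egfl6 had also fallen against the cells not passaged, so the direction of its difference at 20 Gy depended on which untreated cells were used. Wild mouse cells had less Apln at 20 Gy than when passaged (-1.59 ± 0.23, adjusted p = 0.00934; 0.0897, 0.0592 and 0.0632 without replicates 1, 2 and 4, and 0.0771 with replicates 1 and 4 summed). In *A. cahirinus* cells Apln (1.11 ± 0.35, adjusted p = 0.0325) and Angpt2 (2.36 ± 0.66, adjusted p = 0.0213) were higher and Vegfa (-1.30 ± 0.20, adjusted p = 0.00152) lower. Without replicates 1 and 3 the adjusted p was 0.0867 and 0.144 for Apln and 0.131 and 0.101 for Angpt2. These comparisons share the 20 Gy or the passaged libraries with those above.

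The change at 20 Gy was compared directly between populations. At 12 d, *A. cahirinus* differed from C56BL6 cells for 2 of 10 members, against 19.1% of all genes (with the block 9, against 38.3%), and from wild mouse cells for 1 of 10, against 3.39% (with the block 5, against 23.6%). These counts include Vegfd and Egfl6, which were too low to be tested in *A. cahirinus* cells and entered through the mouse libraries. Over the genes tested in each population on its own, 1 of 8 members differed from C56BL6 cells, Angpt2, against 20.6% of those genes (with the block 7, against 42%). From wild mouse cells 1 of 8 differed, Apln, against 3.54% (with the block 4, against 26.3%). The wild mouse and C56BL6 changes differed for 0 of 10 members at 12 d, against 0.0% of all genes, with 0 at an unadjusted p under 0.05 and 0 in DESeq2. With the block this was 1 member, Egfl6 (3.36, adjusted p = 0.0139; 0.0534 with wild replicates 1 and 4 summed), against 0.101% of all genes. At 24 h none passed: 0 of 8 for *A. cahirinus* against C56BL6 (2.1% of all genes; with the block 4, 16.8%), 0 of 9 for *A. cahirinus* against wild mouse (0.0%; with the block 1, 7.18%) and 0 of 9 between the mice (0.0%; with the block 0, 0.647%). In each of these 24 h tests of edgeR, 0 members had an unadjusted p under 0.05 and DESeq2 called 0. Egfl6 passed for *A. cahirinus* against C56BL6 at 12 d (5.87 ± 1.73, adjusted p = 0.0294; 0.216 without replicate 2 and 0.155 without replicate 3), but with *A. cahirinus* counts near the floor this value restates the fall in C56BL6 cells.

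Between untreated wild mouse and C56BL6 cells no member passed edgeR's test, with 0 of 8 at 24 h against 5.7% of all genes and 0 of 10 at 12 d against 2.93%. At an unadjusted p under 0.05 there were 5 members at 24 h and 1 at 12 d. DESeq2 called 3 at 24 h, Vegfc, Vegfd and Pgf, against 12.4% of all genes, and 0 at 12 d. In edgeR these were higher in wild mouse cells by 1.88 ± 0.54 for Vegfc (adjusted p = 0.0861), 2.07 ± 0.64 for Vegfd (adjusted p = 0.108) and 2.54 ± 1.04 for Pgf (adjusted p = 0.202). Pgf in untreated wild mouse cells at 24 h stood at 52.2, 2.70, 15.2 and 1.35 CPM, with replicates 1 and 3 high. Summed pericyte and smooth muscle markers were also highest in those libraries, reaching 2583 CPM against 71.1 CPM in the lowest, and their part was not tested.

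The receptors of these factors were unevenly present. Aplnr, the apelin receptor, had a group mean of at most 0.374 CPM in mouse cells and at most 0.00842 CPM in *A. cahirinus* cells, and Tie1 was near 0 throughout. Kdr, the main Vegfa receptor of endothelium, had group means of up to 8.99 CPM in C56BL6 cells and at most 0.18 CPM in *A. cahirinus* cells. Flt1, a receptor of Vegfa and Pgf, had the highest group mean of the receptors in *A. cahirinus* cells, 95.3 CPM at 0 Gy and 430 CPM at 20 Gy at 12 d (2.18 ± 0.76, adjusted p = 0.0584; 0.000747 with the block). In C56BL6 cells at 12 d after 20 Gy, Flt4, the receptor of Vegfc and Vegfd, rose (1.55 ± 0.33, adjusted p = 0.0115; 0.0516 at most when a replicate was left out) and the co-receptor Nrp1 fell (-0.86 ± 0.10, adjusted p = 0.00169). Met, the Hgf receptor, fell in *A. cahirinus* cells (-0.95 ± 0.13, adjusted p = 0.00143). Nrp2, a co-receptor of Vegfc, did not pass in C56BL6 (-0.91, adjusted p = 0.0828; 0.0186 with the block), wild mouse (-0.09, adjusted p = 0.97) or *A. cahirinus* cells (-0.41, adjusted p = 0.401; 0.00363 with the block). Tek, the receptor of the angiopoietins, had a group mean of at most 4.41 CPM in C56BL6, 2.54 CPM in wild mouse and 0.99 CPM in *A. cahirinus* cells.

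Genes of the same pathways were counted by list for 20 Gy at 12 d. Over all genes, 13% were higher and 13.6% lower in C56BL6 cells, and 13.8% and 18.1% in *A. cahirinus* cells. In C56BL6 cells 2 of 9 tested receptors were higher and 1 lower (median log2 change -0.04), of 14 other angiogenic ligands 3 were higher and 3 lower (-0.02), and of 13 inhibitors and processing proteins 2 were higher and 4 lower (-0.02). The largest changes in these 3 lists were Pdgfb (5.33), St14 (2.38) and Fgf2 (1.91) upward and Angpt4 (-3.19), Col18a1 (-1.40) and Sema3f (-1.26) downward. Of 13 targets of hypoxia-inducible factors 4 were lower and 0 higher (median -0.66), among them Ndrg1 (-1.21), Pdk1 (-0.98) and Bnip3 (-0.91), and of 7 PPAR targets 2 were higher, Pdk4 (1.29) and Plin2 (0.73). In *A. cahirinus* cells 0 of 8 receptors were higher and 1 lower (0.62), of 14 ligands 3 were higher and 2 lower (0.19), and of 14 inhibitors 1 was higher and 2 lower (-0.14). Fgf1 (3.34), Pdgfb (2.13) and Pdgfa (1.21) rose most, and the genes of these 3 lists called lower there are given here only as counts. Of 13 targets of hypoxia-inducible factors 6 were lower and 0 higher (median -0.04), with Car9 (-2.01), Ddit4 (-1.50) and Ankrd37 (-0.89) lowest. In wild mouse cells 0 genes of these lists passed edgeR's test. With the block, which called 7.66% of all genes higher and 7.79% lower there, 2 of 9 receptors were higher, 2 of 13 ligands were higher and 1 lower, and 1 of 12 inhibitors was higher and 2 were lower.

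The genes whose pattern over the 21 group means was most like that of Apln, among 10530 compared, were Tmem120b (Pearson r 0.93), Pknox2 (0.924), Plod1 (0.909), Kat2b (0.889) and Cryz (0.888). Each mean was centred within its population, and the means of one population share animals and batches, so the r describes these groups only.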

How the data were processed

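The deposited values are raw read counts per gene, whole numbers and not normalized. Per the submitters' processing notes, reads went through Trim Galore, HISAT2 and featureCounts, with GRCm39 named as a build. Per the file headers, the counts came from featureCounts 2.0.3 on paired reads mapped at both ends, the mouse table with the Ensembl 108 annotation and the *A. cahirinus* table by gene name on its own gene models. The headers show no strand setting, so reads of overlapping genes cannot be told apart.

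CPM values were computed here from those deposited counts. The main test was edgeR 4.0.16 (R 4.3.3) with the default expression filter by group, TMM scaling, a quasi-likelihood fit of the groups compared, and Benjamini-Hochberg adjustment over all genes tested at 0.05. Each SE given with its log2 change was derived from that test, as the size of the change over the square root of its F value. It is thus an approximation, least sure for genes with few counts. Differences between *A. cahirinus* and mouse changes were fitted on the 18109 symbols that each table lists exactly once, and counted also over the genes tested in each population on its own. DESeq2 1.42.0, RLE size factors, no expression filter, the replicate block and leaving out each replicate number were alternatives. Summing the wild mouse libraries of replicates 1 and 4 at 12 d was chosen after seeing the data, since their detected genes did not differ. Same-numbered libraries carry the same animal code in the library names, and the smallest correlation of their deviations over all comparisons was 0.36. Whether replicates came from separate animals is stated only by those codes, so p-values measure the spread between these libraries. All 126 replicate pairs differed by more than counting noise (chi-square per gene at least 7.95).

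Simulated counts were used to check the fits. For C56BL6 cells at 20 Gy and 12 d (15304 genes), the fit without the block recovered 1% of genes changed by 1 on the log2 scale and 99% of those changed by 2. The block recovered 98% and 100%, with 8.8% false calls against 0% without it. For *A. cahirinus* cells (13537 genes), the fit without the block recovered 2% and 96%, with 0% false calls. There the block recovered 99% and 100%, with 6.1% false calls. Both shares of false calls with the block exceed what the threshold for calls allows. Calls that passed only with the block may include more false ones, and these simulations cannot show how many. These shares depend on how the counts were simulated and do not show which fit suits the deposited counts.

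The members and the gene lists were chosen with earlier results of these data known. All members and 9 of the 11 listed receptors are named, and other genes only as counts or as the up to 3 with the largest called change in a list. For Apln, the 5 symbols with the most similar group means are named. Promoter windows of 9 members were read from the GRCm39 genome and annotation, and that of Angpt2 is not reported here.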

Additional observations from a re-analysis of the deposited data

Results flagged for a closer look

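Of 202 groups of 4 libraries examined, 30 held a library whose gap to its nearest neighbour, as a share of the group's range, exceeded the critical value of Dixon's test. Chance gives about 1 in 20. Most of these libraries recur by replicate number rather than by dose. In wild mouse cells replicate 3 stood out for Angpt2 at 857, 280, 283 and 291 CPM (12 d at 0, 10 and 20 Gy and passaged) and at 99.2 and 103 CPM (24 h at 10 and 20 Gy). Replicate 3 also stood out for Vegfc at 29.9 CPM (10 Gy, 12 d) and 37 CPM (passaged), for Vegfd at 2089 CPM (0 Gy, 12 d) and for Angptl4 at 84 CPM (0 Gy, 24 h). Wild mouse replicate 4 at 24 h stood out for Egfl6 at 10.9, 1.51 and 1.32 CPM (0, 10 and 20 Gy) and for Angpt1 at 1.11 and 1.54 CPM (0 and 20 Gy).

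In *A. cahirinus* cells replicate 2 at 12 d stood out for Vegfc at 43.8, 36.3 and 39.8 CPM and for Angpt1 at 2.1, 9.88 and 17.1 CPM (0, 10 and 20 Gy each). It did so too for Hgf at 22.7 CPM (10 Gy, 12 d) and for Angpt1 at 0.349 CPM (0 Gy, 24 h). Replicate 1 at 24 h stood out for Pgf at 2.69 CPM (0 Gy) and, as the lowest, for Egfl6 at 0.0319 CPM (10 Gy), which is 1 read. In C56BL6 cells replicate 1 at 12 d stood out for Pgf at 7.62 CPM (0 Gy) and 9.3 CPM (20 Gy) and, as the lowest, for Hgf at 30.1 CPM (10 Gy). Replicate 3 stood out for Angpt1 at 0.538 CPM (0 Gy, 24 h), and replicate 4 for Egfl6 at 0.236 CPM (passaged).

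The change at 20 Gy and 12 d differed between populations, by the test of the difference itself, for Angpt2 (5.35 on the log2 scale, *A. cahirinus* minus C56BL6) and for Apln (2.67, *A. cahirinus* minus wild mouse). The value for Egfl6 (5.87, *A. cahirinus* minus C56BL6) also passed, but Egfl6 was too low to be tested in *A. cahirinus* cells, so it restates the fall in C56BL6 cells.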

How the results depend on the processing

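RLE size factors and the absence of an expression filter left the number of called members within 1.5 times its main value in all 26 comparisons, and no member's change that passed, in the main test or under an alternative, took the other sign. Of 232 member results, 48 took the other sign under at least 1 alternative, and in none of these did the main value or the value of other sign pass. The replicate block, whose pairing rests on the animal codes, raised the number of called members most. The share of all genes called rose too and is given beside the counts. At 24 h after 20 Gy, called members moved from 0 to 6 in C56BL6 cells (all genes 0.0895% to 17.6%). They moved to 3 in wild (0.0% to 12.5%) and to 2 in *A. cahirinus* cells (3.59% to 24.1%). At 10 Gy they moved to 4 in C56BL6 (0.007% to 11.5%) and to 4 in *A. cahirinus* cells (3.73% to 27.6%). At 12 d the block gave 7, 3 and 6 at 20 Gy against 3, 1 and 1, in the order C56BL6, wild and *A. cahirinus*. All genes stood there at 47.5%, 15.4% and 49.2% against 26.5%, 0.0694% and 31.8%. At 10 Gy the block gave 6, 4 and 5 against 3, 1 and 0 in that order. All genes stood there at 38.8%, 12.7% and 27.5% against 20.9%, 0.264% and 2.87%. For passaged cells the block gave 5 against 0 in wild (all genes 31.9% against 10.7%) and 6 against 2 in *A. cahirinus* (49.5% against 25.8%). For 20 Gy against passaged cells it gave 5 against 1 in wild (38% against 10.5%). In *A. cahirinus* cells that was 6 against 3 (56% against 42.5%). Between populations at 24 h the block gave 4 for *A. cahirinus* minus C56BL6 (all genes 16.8% against 2.1%). It gave 1 for *A. cahirinus* minus wild (7.18% against 0.0%). At 12 d these were 9 (38.3% against 19.1%) and 5 (23.6% against 3.39%), with 1 for wild minus C56BL6 (0.101% against 0.0%). The block ended no call of edgeR's fit without it, and in total 77 of 214 member results passed only with it. The share of all genes that passed only with the block was not counted. DESeq2, with its own share of all genes called, gave 1 member at 24 h in C56BL6 at 20 Gy (1.86%), 3 between untreated wild and C56BL6 cells at 24 h (12.4%), 5 in C56BL6 at 20 Gy (34.9%) and at 10 Gy (28.7%), 1 in *A. cahirinus* at 10 Gy (11.6%), 2 in wild passaged cells (22%), and 5 and 6 for 20 Gy against passaged C56BL6 (46.5%) and *A. cahirinus* cells (47.9%).

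Leaving out a replicate number gave 3 to 6 called members in C56BL6, 0 to 1 in wild and 1 to 3 in *A. cahirinus* cells at 20 Gy and 12 d, and 1 to 6, 0 and 0 to 2 at 10 Gy. The share of all genes moved with these counts at 20 Gy: from 7.18% (without replicate 3) to 40% (without replicate 1) in C56BL6, from 0% to 0.378% in wild, and from 12% (without replicate 1) to 49.4% (without replicate 2) in *A. cahirinus* cells. At 10 Gy that share ran from 1.9% to 35.7% in C56BL6, 0% to 0.358% in wild and 0% to 10.6% in *A. cahirinus* cells. For passaged cells, leaving out a replicate number gave 0 to 2 in wild (all genes 0% to 15.2%). It gave 0 to 2 in *A. cahirinus* cells (6.03% to 38.8%). For 20 Gy against passaged cells it gave 1 to 5 in C56BL6 (25.6% to 48.8%) and 0 to 1 in wild (0% to 13.1%). In *A. cahirinus* cells that was 1 to 6 (20% to 60.4%). Between populations at 12 d, leaving out a replicate number gave 1 to 3 for *A. cahirinus* minus C56BL6 (all genes 4.47% to 17.3%). It gave 0 to 2 for *A. cahirinus* minus wild (0% to 5.91%). Between untreated wild and C56BL6 cells at 12 d it gave 0 to 1 (0.81% to 2.62%). With wild replicates 1 and 4 summed, 0 members passed at 20 Gy, at 10 Gy and at 20 Gy against passaged cells, against 0% of all genes in each. With the block added there were 2 (2.49%), 3 (3.59%) and 3 (27.5%), with 4 for passaged cells (14.3%) and 5 for *A. cahirinus* minus wild (17.5%). Fewer libraries enter each of these fits; the cause of other differences was not tested. Genes near 3 reads, such as Angpt1 at 24 h and Egfl6 and Vegfd in *A. cahirinus* cells, rest on few reads. The cause of their low counts was not tested.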

Other observations

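Apln, Vegfd and Egfl6 are on chromosome X, and the C56BL6 libraries fell into 2 sets by sex-linked transcripts. Ddx3y, on chromosome Y, was between 79.4 and 113 CPM in replicates 3 and 4 and at most 0.0574 CPM in replicates 1 and 2. In untreated C56BL6 cells at 12 d, Apln was 21.2 and 13.4 CPM in replicates 1 and 2 and 70.1 and 43.3 CPM in replicates 3 and 4. Vegfd was 590 and 1368 CPM in replicates 1 and 2 and 1877 and 1712 CPM in replicates 3 and 4, and Egfl6 was 41.5 and 97.6 CPM against 247 and 207 CPM. The split was not limited to chromosome X: of the 7 autosomal members, Angptl4 (107.7 and 87.8 CPM against 108.5 and 158 CPM) and Angpt1 (0.135 and 0.424 CPM against 3.21 and 2.45 CPM) were also higher in both of replicates 3 and 4, and the other 5 were not. All wild mouse libraries had Ddx3y at 0 and all *A. cahirinus* libraries had it between 43.9 and 65.1 CPM. A difference between these populations, as in the change of Apln, cannot be told apart from one between libraries without and with Ddx3y. The C56BL6 sets were seen in the data, hold 2 replicate numbers each and were not tested.

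The libraries of wild mouse replicate 1 at 12 d did not match replicate 1 at 24 h across genes (r = -0.15), and matched replicate 4 at 24 h (r = 0.71). For Egfl6, wild mouse replicates 1 and 4 at 12 d were alike, at 389 and 338 CPM at 0 Gy and 43.1 and 63.6 CPM at 20 Gy, while replicates 2 and 3 were at 7.86 and 0.927 CPM at 0 Gy.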
